A study of Homo sapiens with 4 samples.

Results

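The genes described here encode 9 proteins that assemble in PML nuclear bodies: PML, SP100, SP110, DAXX, ATRX, HIPK2, TOPORS, MORC3 and BLM. They were taken by gene symbol as known proteins of the bodies, with no threshold on a measured value, though earlier results of these data were known when they were picked. They are 9 of the 19381 genes listed, and all 9 were among the 12906 genes that passed the filter on low counts. RNA was sequenced from SK-LMS-1 cells, a human leiomyosarcoma line, in 2 libraries of cells exposed to 2-D08 (50 µM for 48 h) and 2 libraries of untreated cells. 2-D08 is a small molecule that inhibits the attachment of SUMO to proteins, and the labels state no vehicle for the untreated cells. All libraries come from this cell line alone, and the labels do not say that libraries of a group were separate cultures, so each p-value speaks of the spread among these 4 libraries, which can be technical. In bulk RNA, fewer cells of a type and less RNA per cell cannot be told apart.

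PML nuclear bodies are protein assemblies of the nucleus whose shell is built by the PML protein. PML is itself modified by SUMO and also carries a SUMO-binding motif, and many client proteins reach the bodies by binding SUMO or by being modified with it. The bodies are known for roles in the interferon response, in the deposition of the histone variant H3.3 and in the storage of DNA repair proteins. PML, SP100 and SP110 are known interferon-induced genes. The measurements here are of RNA, and the SUMO state of the proteins and the number of bodies were not analysed here.

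The libraries held 14796702 and 31300635 counted reads in 2-D08 cells and 29586475 and 16628710 in untreated cells. Even numbers made up 47.9% and 88.8% of the nonzero counts in the 2-D08 libraries and 89.0% and 48.4% in the untreated libraries, so the deeper library of each group held mostly even counts. The cause of the even counts was not tested, and with the counts of the 2 mostly even libraries halved, MORC3 and BLM were again the members called. The smooth muscle label was checked against its markers. Desmin (DES) had no read in any library, MYOCD had 0.13 and 0.06 CPM (read counts scaled to a common depth with TMM factors) in 2-D08 cells and none in untreated cells, and MYH11 stayed between 0.47 and 0.78 CPM. ACTA2 had 3.06 and 4.34 CPM in 2-D08 cells and 6.64 and 4.36 CPM in untreated cells, CNN1 2.06 and 2.07 CPM against 4.05 and 4.42 CPM, and TAGLN 14.95 and 14.6 CPM against 27.1 and 26.1 CPM. CALD1, which other mesenchymal cells also express, was higher, at 445 and 523 CPM in 2-D08 cells and 641 and 680 CPM in untreated cells. The mesenchymal marker VIM was high, at 7192 and 6882 CPM in 2-D08 cells and 9887 and 10195 CPM in untreated cells. Of 8 marker genes tested, CNN1, TAGLN, CALD1 and VIM fell and PECAM1 rose, and the median log2 fold change was -0.48. Over all tested genes 33.9% were called in the same test, described below. With DESeq2 3 markers were called, and on each TPM scale 2. PECAM1 had only 18 and 40 reads in 2-D08 cells and 14 and 2 in untreated cells. The epithelial and immune markers EPCAM, CDH1 and PTPRC were under 1 CPM in every library, and the endothelial PECAM1 had 1.20 and 1.30 CPM in 2-D08 cells and 0.47 and 0.12 CPM in untreated cells. The markers' part in the values below was not tested.

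Promoter sequence was matched by symbol to RefSeq windows (GRCh38.p14) that run from 250 bases before a start site to 50 bases after it. The tables held windows for SP100 and SP110 (2 each), TOPORS, MORC3 and BLM, and none for PML, DAXX, ATRX and HIPK2. The SP100 family is shown first because its genes neighbour each other on chromosome 2 and share a sequence next to their starts. Capitals mark the letters AAGTGAAA, a short element bound by interferon regulatory factors, read here on the other strand, and all lines are the plus strand, 5′ to 3′.
SP110 and SP140 (chr2:230225706-230225735): cacgtcagctagttaggcaaTTTCACTTtt
SP100 (chr2:230416126-230416155): aggttaaatacTTTCACTTctcttttcccc
SP140L (chr2:230327095-230327124): taaataaatacTTTCACTTttcttttcccc
The start sites of SP110 and SP140 lie 99 bases apart on opposite strands, so a single stretch serves both windows. The 250 bases before the start of SP100 and of SP140L aligned with 207 identical bases in 278 columns (74.5%). AAGTGAAA on either strand was present in 1.62% of all 35116 promoter windows, and it was found in both SP110 windows and in the first SP100 window, but not in those of TOPORS, MORC3 and BLM. This motif was added after the others had been searched. The fuller interferon-response letters GAAANNGAA (8.11% of all windows) were in none of the windows of these 5 members. The STAT letters TTCNNNGAA (7.66%) matched in the second SP110 window only.

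BLM and MORC3 are shown because they are the members whose RNA passed the test between the groups. Each line is the 150 bases that end 1 base before the annotated start of the gene, and capitals mark the GC box GGGCGG on either strand, a motif also added later.
BLM (chr15:90717177-90717326): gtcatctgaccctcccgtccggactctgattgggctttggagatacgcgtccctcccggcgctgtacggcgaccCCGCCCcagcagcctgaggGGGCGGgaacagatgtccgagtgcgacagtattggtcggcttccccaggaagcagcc
MORC3 (chr21:36320039-36320188): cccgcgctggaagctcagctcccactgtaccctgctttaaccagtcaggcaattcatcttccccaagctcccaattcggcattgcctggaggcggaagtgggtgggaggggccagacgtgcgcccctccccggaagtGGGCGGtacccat
The GC box was in 45% of all promoter windows, and it was found at 2 places in the BLM window and at 1 in the MORC3 window. The first window of SP100, which was not called, also held it at 1 place. It was absent from the second SP100 window, both SP110 windows and the TOPORS window. The E2F letters TTTCCCGC or TTTGGCGC, which are known from promoters of replication genes, were in 2.27% of all windows and in none of these 5 members. Only these exact letters were searched, and looser forms of the site were not. The BLM line holds GCGGGAAC, which differs in its last letter from TTTCCCGC read on the other strand. Near matches were not counted in the windows of the other members or over all windows. This one is therefore not read as a trait of BLM. A match is a description of the letters and does not show that a factor binds there.

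Among the 9 members, 2 rose, none fell and 7 did not pass the test, with edgeR's quasi-likelihood test and Benjamini-Hochberg adjustment over all genes (called where the adjusted p was under 0.05). The share of all tested genes called in this comparison was 33.9%, with 17.1% higher and 16.9% lower in 2-D08 cells. BLM had about 2.00 times as much RNA in 2-D08 cells as in untreated cells, and MORC3 about 1.26 times as much. The median log2 fold change of the 9 members was 0.02, beside -0.00 over all tested genes, and their values ran from -0.19 to 1.00. For 8 of the 9 members, all but BLM, the 95% interval of the difference lay within 1.5-fold in either direction.

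**Figure D1:**
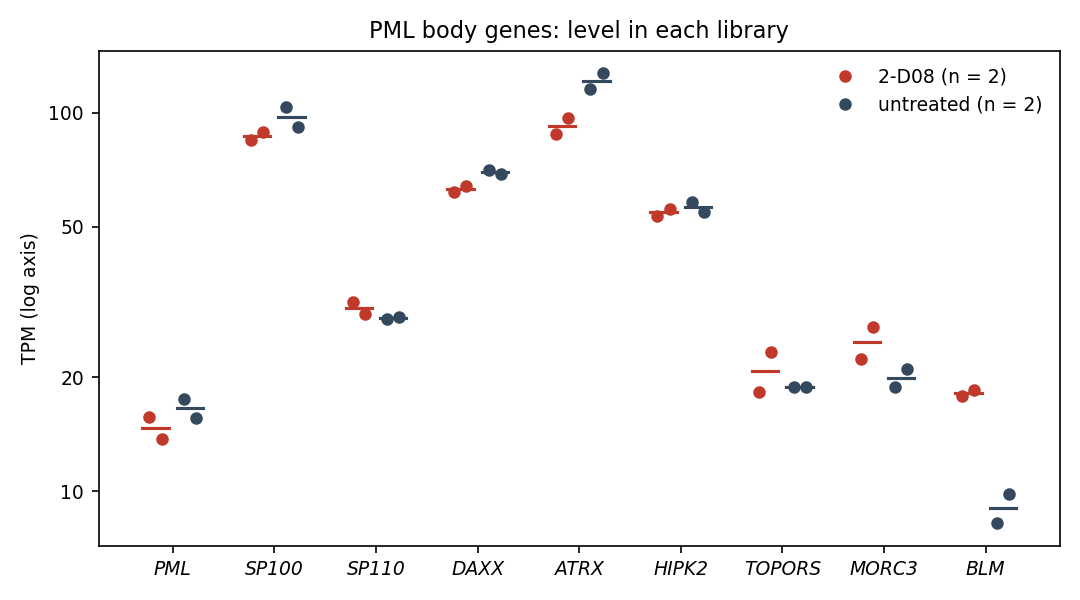
Deposited TPM (a level scaled for transcript length and depth, log axis) of each PML body gene in the 2 libraries of 2-D08 cells (left of each pair) and the 2 of untreated cells. Points are libraries and lines are group means. BLM sits at 17.83 and 18.56 TPM in 2-D08 cells, against 8.23 and 9.85 TPM in untreated cells.

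PML, the scaffold of the bodies, is annotated on chromosome 15 from 73994673 to 74047812 on the plus strand (GRCh38, GENCODE 29), with 22 transcripts of which 18 are protein-coding, and gene-level values do not tell them apart. It was measured at 36.9 and 32.8 CPM in 2-D08 cells and 38.2 and 35.7 CPM in untreated cells. The ranges overlapped, and the log2 fold change was -0.09 ± 0.12 (SE) with a 95% interval from -0.34 to 0.16 (edgeR adjusted p = 0.577). On the per-length scale PML had the lowest mean level of the 9 genes in 2-D08 cells, 14.7 ± 1.41 TPM (SD, n = 2), and the second lowest in untreated cells, 16.5 ± 1.34 TPM. Over the 4 libraries, the genes whose centred log2 CPM lay nearest to that of PML among 9400 genes averaging 10 CPM or more were NAXE, PRKAB1 and PCBP1. Their Euclidean distances were 0.0186, 0.0188 and 0.0195 log2 units and their log2 fold changes -0.10, -0.09 and -0.08.

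SP100, a long-known resident of the bodies and a chromatin reader, lies on chromosome 2 from 230415942 to 230544090. Its values of 143 and 178 CPM in 2-D08 cells fell on either side of the 161 and 157 CPM in untreated cells. The log2 fold change was 0.01 ± 0.11 (SE), with an interval from -0.22 to 0.24 (edgeR adjusted p = 0.935). In TPM the groups did not overlap and the sign turned, with 84.7 and 88.83 TPM in 2-D08 cells against 103.56 and 91.67 TPM in untreated cells, and the difference in log2(TPM + 1) was -0.17. Some of the exonic bases of SP100 (4.31%) are also annotated to the pseudogene HMGB1P3, and 0.927% to AC010149.1 on the other strand.

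SP110, an SP100 relative with a bromodomain, is read from the minus strand of chromosome 2 from 230167293 to 230225729. It was at 36.8 and 39.2 CPM in 2-D08 cells and 37.1 and 38.1 CPM in untreated cells. In CPM all 4 libraries lay close together, and the untreated values fell inside the 2-D08 range. In TPM the groups of SP110 did not overlap, with 31.6 and 29.37 TPM in 2-D08 cells against 28.5 and 28.95 TPM in untreated cells. Its log2 fold change was 0.02 ± 0.11 (SE), with an interval from -0.22 to 0.25 (edgeR adjusted p = 0.914). The head-to-head neighbour SP140 shares 2.48% of the exonic bases of SP110 on the opposite strand, where AC009950.1 also overlaps exons of SP110. The sources used here do not state the strand setting of the counting.

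The other family genes in the same stretch of chromosome 2 passed the test. SP140, known mainly from immune cells, was low in these cells, with 52 and 114 reads (3.46 and 3.70 CPM) in 2-D08 cells and 46 and 35 reads (1.55 and 2.12 CPM) in untreated cells, and rose by 1.00 ± 0.29 on the log2 scale (SE, edgeR adjusted p = 0.0172). The call of SP140 was lost with DESeq2 (adjusted p = 0.101), on both TPM scales and without 2-D08 replicate 2 or untreated replicate 1. SP140L had 41.4 and 43.0 CPM in 2-D08 cells and 29.2 and 34.3 CPM in untreated cells, and rose by 0.42 ± 0.12 (SE, edgeR adjusted p = 0.0143). SP140L was not called on log2(TPM + 1) (limma adjusted p = 0.145), on log2(TPM + 0.1), or without untreated replicate 1, where its log2 fold change was 0.30 (edgeR adjusted p = 0.325). SP140 and SP110 thus share the stretch printed above and had log2 fold changes of 1.00 and 0.02. The difference between these genes was not tested.

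DAXX and ATRX together place the histone variant H3.3 at repeats and telomeres, and both had lower values in 2-D08 libraries without passing the test. DAXX, the H3.3 chaperone that reaches the bodies through SUMO, lies on chromosome 6 from 33318558 to 33323016. It had 83.3 and 78.6 CPM in 2-D08 cells and 90.5 and 87.0 CPM in untreated cells. Both 2-D08 libraries were below both untreated libraries. The log2 fold change was -0.14 ± 0.09 (SE), with an interval from -0.34 to 0.06 (edgeR adjusted p = 0.277), and none of 16 other settings called it. In the annotation 14.3% of its exonic bases are shared with AL662820.1 on the same strand.

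ATRX, the SNF2-type remodeller partnered with DAXX and lost in many tumours that lengthen telomeres by recombination, lies on chromosome X from 77504878 to 77786233. It had 362 and 434.17 CPM in 2-D08 cells and 434.41 and 476 CPM in untreated cells. The groups were separated by less than 1 CPM, and 2-D08 replicate 1 was the lowest library. Its log2 fold change was -0.19 ± 0.10 (SE), with an interval from -0.41 to 0.03 (edgeR adjusted p = 0.161). In TPM the gap was wider, with 88.0 and 96.89 TPM in 2-D08 cells against 115.73 and 127.25 TPM in untreated cells, a difference in log2(TPM + 1) of -0.39 (limma adjusted p = 0.0619). Without 2-D08 replicate 2 ATRX fell by 0.34 (edgeR adjusted p = 0.000187), and without 2-D08 replicate 1 the value was -0.07.

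**Figure D2:**
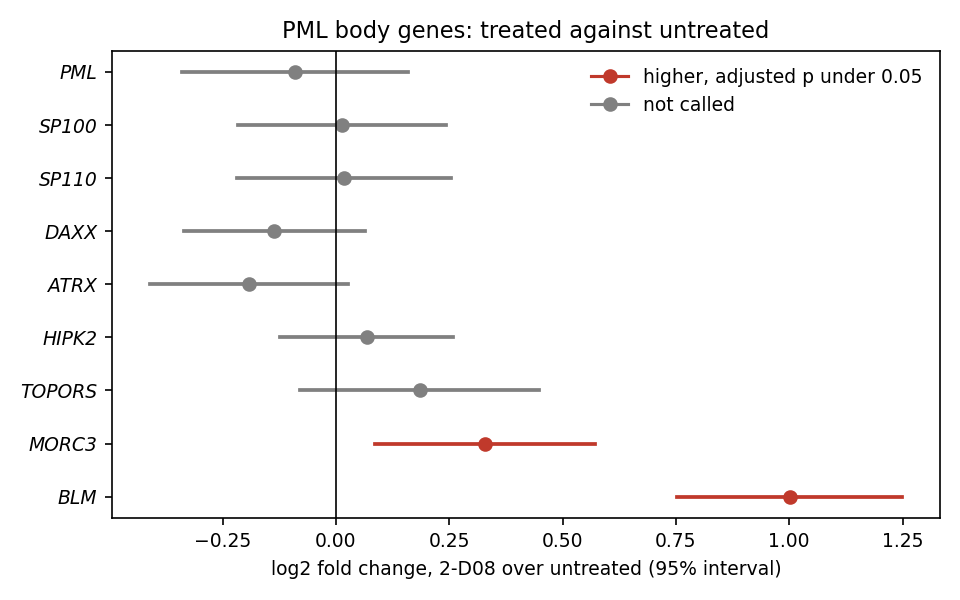
Log2 fold change of each PML body gene, 2-D08 over untreated, from the edgeR fit (points) with 95% intervals (lines), n = 2 libraries a group. The intervals of BLM (0.75 to 1.25) and MORC3 (0.09 to 0.57) lie above 0, and those of the other members span 0.

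HIPK2 is a serine/threonine kinase that acts in the response to DNA damage and is drawn to the bodies by PML. It is annotated on the minus strand of chromosome 7 from 139561570 to 139777778. Its values were 584 and 643 CPM in 2-D08 cells and 589 and 583 CPM in untreated cells. The groups overlapped, and 2-D08 replicate 2 stood above the other libraries. The log2 fold change was 0.07 ± 0.09 (SE), with an interval from -0.12 to 0.26 (edgeR adjusted p = 0.589).

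TOPORS, a topoisomerase I-binding protein that can act as a ligase for both ubiquitin and SUMO, lies on chromosome 9 from 32540544 to 32552553. In the annotation 2.93% of its exonic bases are shared with SMIM27 on the opposite strand. TOPORS was at 50.7 and 66.4 CPM in 2-D08 cells and 51.6 and 52.0 CPM in untreated cells. The 2-D08 libraries fell on either side of the untreated ones. The log2 fold change was 0.18 ± 0.12 (SE), with an interval from -0.08 to 0.45 (edgeR adjusted p = 0.264). The sign rested on 2-D08 replicate 2, since the value was -0.04 without that library and 0.35 without 2-D08 replicate 1 (edgeR adjusted p = 0.00202).

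MORC3, an ATPase of the MORC family that enters the bodies through SUMO and is known to restrain interferon expression, lies on chromosome 21 from 36320189 to 36386148. It had 66.3 and 81.2 CPM in 2-D08 cells and 56.0 and 62.1 CPM in untreated cells. Both 2-D08 libraries were above both untreated libraries, although 2-D08 replicate 1 exceeded untreated replicate 2 by a smaller margin than the libraries within either group differed. MORC3 rose by 0.33 ± 0.11 on the log2 scale (SE, edgeR adjusted p = 0.0379), a 1.26-fold difference with a 95% interval from 1.06 to 1.49. The call was lost under 7 of 16 other settings: with DESeq2 (adjusted p = 0.0725), on both TPM scales, on the deposited transformed values and without 2-D08 replicate 2, untreated replicate 1 or untreated replicate 2. Without 2-D08 replicate 2 the log2 fold change was 0.17. MORC3 shares 89 of its 6408 exonic bases (1.39%) with CHAF1B on the same strand, and CHAF1B, a histone chaperone subunit, was higher at 44.2 and 46.0 CPM in 2-D08 cells than at 27.5 and 25.3 CPM in untreated cells (log2 fold change 0.77 ± 0.11 SE, edgeR adjusted p = 0.000194). The part of CHAF1B in the MORC3 value was not tested. In the annotation AP000692.1 on the same strand and AP000692.2 on the other strand also overlap exons of MORC3.

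BLM, the RecQ helicase mutated in Bloom syndrome, is stored in PML bodies, is modified by SUMO and acts at stalled replication forks and in recombination. It is annotated on the plus strand of chromosome 15 from 90717327 to 90816165 and shares no exonic base with another gene. The read counts were 744 and 1682 in 2-D08 cells and 734 and 454 in untreated cells, which gave 49.4 and 54.5 CPM in 2-D08 cells and 24.7 and 27.5 CPM in untreated cells. Both 2-D08 libraries lay well above both untreated libraries, and the libraries within each group lay close together. BLM rose by 1.00 ± 0.12 on the log2 scale (SE, edgeR adjusted p = 2.82e-05), a 2.00-fold difference with a 95% interval from 1.68 to 2.38. Its difference exceeded in size those of 92.2% of tested genes, and that of MORC3 exceeded 57.3%. BLM was called higher under all 16 other settings, with log2 fold changes from 0.83 to 1.07.

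**Figure D3:**
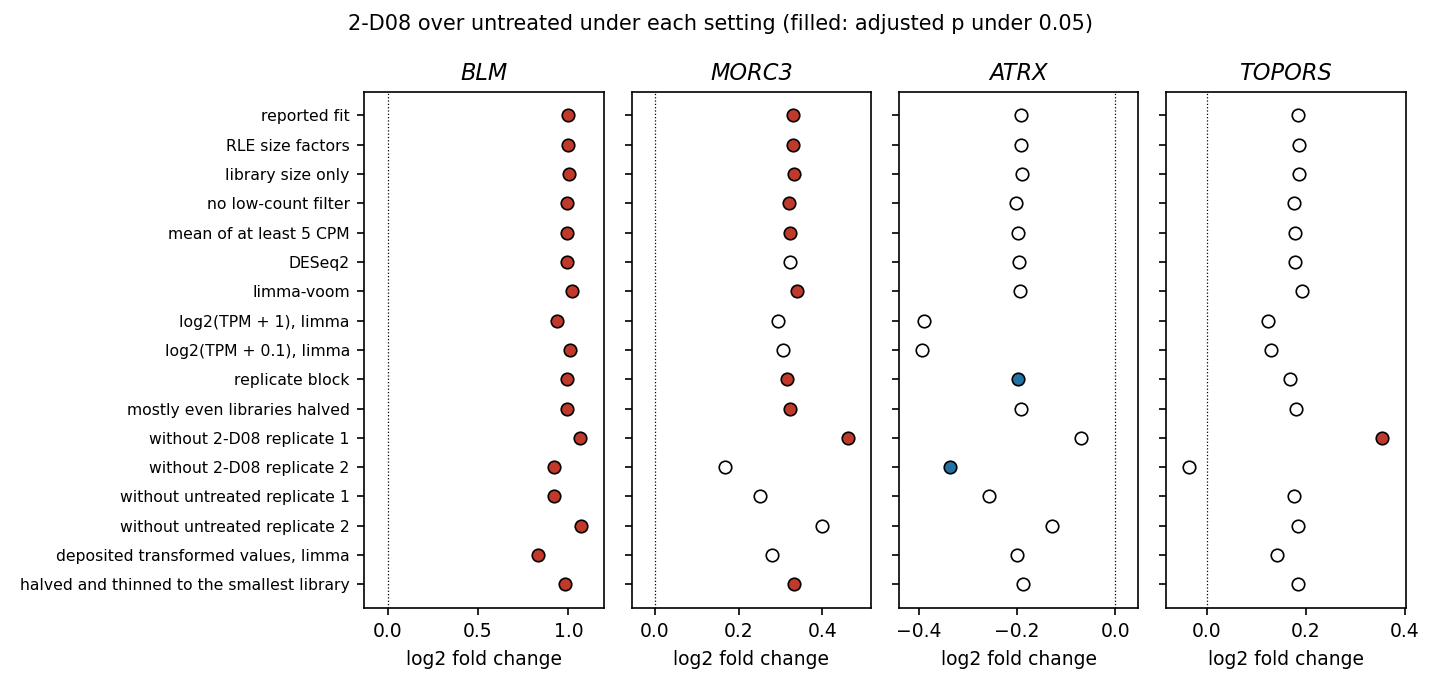
Log2 fold change of BLM, MORC3, ATRX and TOPORS (x axes, 2-D08 over untreated) under the reported fit and 16 other settings (rows). Filled points passed an adjusted p of 0.05. BLM was called in every row, MORC3 lost its call in 7 settings, ATRX was called lower in 2, and TOPORS was called higher in 1.

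Levels between genes were compared in TPM. In 2-D08 cells the order of means ran from ATRX (92.4 TPM) through SP100 (86.8), DAXX (62.8), HIPK2 (54.6), SP110 (30.5), MORC3 (24.8), TOPORS (20.8) and BLM (18.2) to PML (14.7). Neighbours whose libraries overlapped in that order were ATRX and SP100, MORC3 and TOPORS, and TOPORS and BLM. In untreated cells the order of the first 7 genes was the same, from ATRX at 121 TPM to TOPORS at 18.9 TPM, with PML at 16.5 TPM and BLM last at 9.04 TPM. Only MORC3 and TOPORS overlapped as neighbours there. BLM thus lay above PML in 2-D08 cells and below it in untreated cells. The TPM of the 9 genes summed to 393 and 418 in 2-D08 cells and 440 and 437 in untreated cells. The libraries differed in their total TPM over the listed genes. As a share of that total the 9 genes held 0.0531% and 0.0582% in 2-D08 cells. In untreated cells the share was 0.0577% and 0.0585%, so the groups overlapped.

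The CPM groups did not overlap for 4 of the 9 members, a pattern found in 67.5% of all tested genes. BLM and MORC3 were above and DAXX and ATRX below. In TPM 6 of the 9 did not overlap. No share over all genes is given on that scale, so this count is not read as a result about the members. The libraries of the 2-D08 group differed from each other more than those of the untreated group: the median absolute log2 difference between replicates over all genes was 0.169 in 2-D08 cells and 0.102 in untreated cells. Among the members, 7 of 9 were higher in replicate 2 than in replicate 1 of the 2-D08 pair, by as much as 0.38 for TOPORS and 0.32 for SP100 on the log2 scale. In the untreated pair 5 of 9 were higher in replicate 2, and TOPORS and SP100 differed by 0.01 and -0.03. Over all genes the median log2 difference, replicate 2 minus replicate 1, was -0.0027 in the 2-D08 pair and 0.00028 in the untreated pair. The share of all genes higher in replicate 2 was not counted, so these counts are not read as results about the members.

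The relatives and partners of the members were read from lists of 56 genes in all, drawn up with earlier results of these data known, of which 21 rose and 3 fell. Over all tested genes 33.9% were called, 17.1% higher and 16.9% lower. These shares are the background for this count and for the count of each list below. The 56 genes include 12 general genes of DNA replication, which gave 10 of the 21 rises. Of 7 BLM partners and RecQ relatives, 4 were called higher and none lower, with a median log2 fold change of 0.48. The called genes were TOP3A, RMI1 and RMI2, which form the Holliday junction dissolving complex with BLM, and the helicase RECQL. RMI1 had 67.2 and 81.8 CPM in 2-D08 cells and 45.1 and 44.7 CPM in untreated cells and rose by 0.74 ± 0.11 (SE, edgeR adjusted p = 0.000244). TOP3A had 49.9 and 43.8 CPM in 2-D08 cells and 30.8 and 30.6 CPM in untreated cells and rose by 0.60 ± 0.11 (SE, edgeR adjusted p = 0.00118). RMI2 rose by 0.56 ± 0.15 (SE, edgeR adjusted p = 0.012) and RECQL by 0.48 ± 0.09 (SE, edgeR adjusted p = 0.00136). The 2-D08 libraries of each lay above the untreated ones, and RMI1 and RECQL kept their calls under all the other settings, while TOP3A and RMI2 lost theirs on both TPM scales and RMI2 also without untreated replicate 1.

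Genes of DNA replication also rose. Of 12 such genes, 10 were called higher and none lower, with a median of 0.67. The initiation factor CDC6 had 108 and 109 CPM in 2-D08 cells and 34.5 and 30.3 CPM in untreated cells, a rise of 1.74 on the log2 scale. The sliding clamp PCNA had 272 and 282 CPM in 2-D08 cells and 145 and 150 CPM in untreated cells, a rise of 0.91. RRM2, a ribonucleotide reductase subunit, rose by 1.24 and CCNE2, a cyclin of the G1/S transition, by 1.70, while the helicase subunits MCM5 and MCM6 did not pass the test. MCM7 lost its call on both TPM scales and without untreated replicate 1 or untreated replicate 2, and RRM1 lost its call without untreated replicate 1. The summed level of the list was 3042 and 2939 CPM in 2-D08 cells and 1680.0 and 1727 CPM in untreated cells. RRM2 alone held 1035 and 1042 CPM of it in 2-D08 cells and 423 and 457 CPM in untreated cells. The summed level moved in the same direction as BLM, and its part in the BLM value was not tested.

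**Figure D4:**
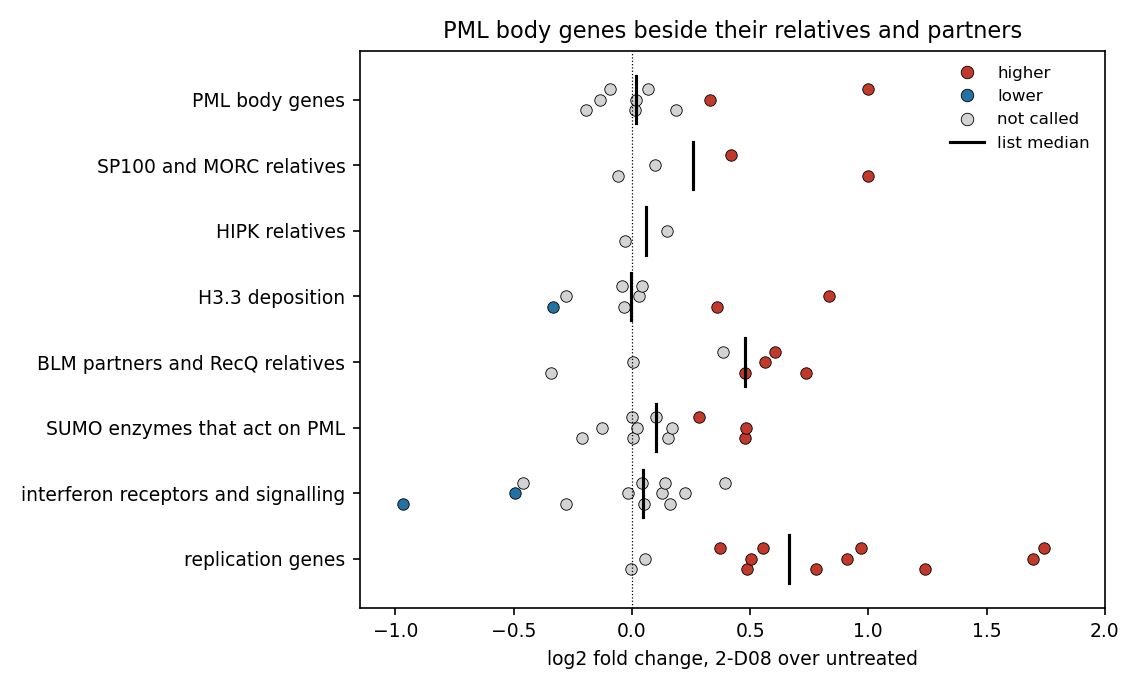
Log2 fold change (x axis, 2-D08 over untreated, edgeR fit, n = 2 libraries a group) of the PML body genes and of each list of relatives and partners (rows). Each point is a gene, colour marks the call at an adjusted p of 0.05, and the bar is the list median. The median is 0.67 for replication genes, 0.48 for BLM partners and RecQ relatives and 0.02 for the PML body genes.

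Other H3.3 deposition genes, which act beside DAXX and ATRX, moved in both directions: 2 of 8 rose, 1 fell, and the median was -0.00. ASF1B, a histone chaperone that is most abundant in dividing cells, had 63.3 and 49.0 CPM in 2-D08 cells and 32.9 and 29.5 CPM in untreated cells and rose by 0.83 ± 0.13 (SE, edgeR adjusted p = 0.000304), a call lost on log2(TPM + 1). Of the HIRA complex subunits, UBN1 rose by 0.36 ± 0.10 (SE, edgeR adjusted p = 0.016), UBN2 fell by 0.34 ± 0.11 (SE, edgeR adjusted p = 0.0255), and HIRA itself had a log2 fold change of -0.03. The calls of UBN1 and UBN2 were both lost without untreated replicate 1, without untreated replicate 2 and on log2(TPM + 1), and that of UBN2 also on log2(TPM + 0.1).

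Among 11 SUMO pathway genes that act on PML, 3 rose and none fell, with a median of 0.10. RNF4, the ubiquitin ligase that recognises poly-SUMO chains and marks PML for degradation, had 123 and 126 CPM in 2-D08 cells and 86.9 and 92.1 CPM in untreated cells and rose by 0.48 ± 0.09 (SE, edgeR adjusted p = 0.00116). SENP1, a protease that removes SUMO, rose by 0.48 ± 0.10 (SE, edgeR adjusted p = 0.00289), and UBA2, a subunit of the SUMO-activating enzyme, by 0.28 ± 0.09 (SE, edgeR adjusted p = 0.029). Without untreated replicate 1 none of the 11 was called by edgeR, and RNF4 then had an adjusted p of 0.0648. On each TPM scale 1 of the 11 was called. More of the 11 were called without 2-D08 replicate 1, as were more of all tested genes.

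The receptors and signalling genes of interferon, which is known to induce PML, SP100 and SP110, were read as a list of 12. None rose, 2 fell, and the median was 0.05. More of the 12 were called without 2-D08 replicate 1, as were more of all tested genes. STAT2, the transcription factor subunit of the type I interferon response, had 36.3 and 34.9 CPM in 2-D08 cells and 69.9 and 69.3 CPM in untreated cells and fell by 0.97 ± 0.10 (SE, edgeR adjusted p = 1.2e-05). JAK1, the kinase bound to the receptors, had 234 and 257 CPM in 2-D08 cells and 348 and 345 CPM in untreated cells and fell by 0.49 ± 0.09 (SE, edgeR adjusted p = 0.000923). Both calls held under all the other settings. IRF1, a transcription factor of this response, had 21.5 and 18.5 CPM in 2-D08 cells and 15.3 and 14.8 CPM in untreated cells and was close to the threshold without passing it (log2 fold change 0.40, edgeR adjusted p = 0.0503). Settings that called IRF1 higher included RLE size factors (edgeR adjusted p = 0.045) and the mostly even libraries halved (edgeR adjusted p = 0.0449). In TPM its groups overlapped, with 16.38 and 12.9 TPM in 2-D08 cells against 12.29 and 13.98 TPM in untreated cells.

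Of the MORC and HIPK relatives, none passed the test. MORC2 had a log2 fold change of 0.10 and MORC4 of -0.06. HIPK1 had 154 and 158 CPM in 2-D08 cells and 143 and 139 CPM in untreated cells, which gave a value of 0.15 (edgeR adjusted p = 0.215), and HIPK3 a value of -0.03. Whether these relatives differed from MORC3 and HIPK2 was not tested.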

How the data were processed

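Total RNA depleted of ribosomal RNA was sequenced from SK-LMS-1 cells, 2 libraries per group, per the labels. The submitters' processing notes name cutadapt 3.4, STAR 2.7.8a, DESeq2 and GRCh38. Neither these notes nor the labels state the counting tool, annotation or strand setting. The authors deposited whole-number read counts, TPM (716934 to 761770 summed over the listed genes of a library) and transformed values on a log2-like scale under a name that says normalised counts. The members and lists were chosen with earlier results of these data known.

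Counts were tested with edgeR 4.0.16 (robust quasi-likelihood, TMM factors, filterByExpr with a minimum count of 10, two-sided), fitted on all genes with Benjamini-Hochberg adjustment. Calls are at an adjusted p under 0.05. Of the partners, all genes called could be named, and up to 4 others per list. Alternatives used limma 3.58.1, DESeq2 1.42.0, R 4.3.3, pseudocounts of 1 and 0.1 on TPM, halved counts and left-out libraries. Gene positions came from GENCODE 29. Protein sequences were not analysed here, and some genes that act with the members are not reported here.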

Additional observations from a re-analysis of the deposited data

How the results depend on the processing

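The count test was repeated under 16 other settings, of which 2 (the deposited transformed values, and counts halved and thinned to the smallest library) were chosen after seeing the data. With 2 libraries a group, a left-out library leaves a lone sample that is assumed to vary like the other group. Of the 9 members, 1 was called with DESeq2, 1 on log2(TPM + 1), 1 on log2(TPM + 0.1) and 1 on the deposited transformed values, against 2 in the reported fit, and leaving out 1 library gave 1 to 3. Of the 56 relatives and partners, 14 were called on log2(TPM + 1) and 16 on log2(TPM + 0.1), against 24, and leaving out 1 library gave 14 to 32. Of the 24 called partners, 12 kept the call in all settings that gave a value, 12 lost it in at least 1, and 0 changed sign.

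Over all genes, 4376 were called, against 3398 with DESeq2, 1598 on log2(TPM + 1), 1608 on log2(TPM + 0.1) and 1860 to 5993 with 1 library left out. The labels do not say that replicate numbers pair the libraries, and over 12906 genes the deviations of same-numbered libraries correlated at 0.21. With the replicate number as a block, 3 members (ATRX was added, log2 fold change -0.20, edgeR adjusted p = 0.0145), 32 partners (6 of them interferon genes, against 2) and 6239 genes were called.

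Signs turned only for values that were not called. SP100 was -0.17 on both TPM scales and -0.0026 on the transformed table, and HIPK2 was -0.043 on log2(TPM + 1) and -0.044 on log2(TPM + 0.1). Leaving out 1 library gave -0.17 to 0.16 for SP100, -0.034 to 0.057 for SP110, -0.0094 to 0.13 for HIPK2, -0.036 to 0.35 for TOPORS, -0.092 to 0.022 for HIPK3 and -0.14 to 0.064 for HIRA. The cause of these changes was not tested.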
